A study of Mus musculus with 8 samples.

Results

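The WNT ligands, their Frizzled receptors and the secreted proteins that hold them in check were followed in RFB cells, a mouse kidney line labelled as fibroblast. Genes were taken by symbol from the deposited gene table, which gave 54 of its 22274 genes: 19 WNT ligands, 12 Frizzled receptors and LRP co-receptors, 11 secreted antagonists, 9 genes of the R-spondin axis, and Axin2, Tcf7 and Lef1 as nuclear factors and feedback target. Of 8 libraries, 4 came from cells given TGF-β and chaetocin, a fungal compound used to inhibit the SUV39 family of histone methyltransferases, and 4 from cells given TGF-β alone. TGF-β, a cytokine that drives matrix production, was therefore present in both groups, and no value below describes its own effect. The sources used here give no dose, no time and no clone, and do not say that the samples were separate cultures. P-values therefore compare the groups with a spread between libraries that may be technical. The design text of the series names SUV39H1 knockdown cells, which no label of these libraries mentions.

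WNT proteins are lipid-modified secreted ligands that bind a Frizzled receptor together with LRP5 or LRP6. In the canonical branch this stabilises β-catenin, which acts with TCF and LEF factors on target genes such as Axin2, itself an inhibitor of the pathway. R-spondins, bound by LGR4, LGR5 and LGR6, keep the ligases ZNRF3 and RNF43 from clearing Frizzled from the cell surface, while SFRP, WIF1, DKK and NOTUM proteins act outside the cell on ligands or co-receptors. In mouse kidney, Wnt9b and Wnt4 are needed for nephron formation, and WNT genes are known to be active again in injured and fibrotic kidney.

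Total counts were 14421225 to 22591935 in the chaetocin libraries and 20135312 to 23664084 in the TGF-β libraries, and 3 counts corresponded to 0.128 to 0.200 TMM-scaled CPM (each gene's reads per unit of library size, scaled alike across libraries). The fibroblast label was checked with marker lists. Vim averaged 442 CPM with chaetocin and 1163 CPM with TGF-β alone, Col1a1 averaged 58.0 CPM with chaetocin and 233 CPM with TGF-β alone, and Acta2 averaged 1597 CPM with chaetocin and 1248 CPM with TGF-β alone. Dcn was at 2.27 CPM with chaetocin and 0.129 CPM with TGF-β alone, and Lum at 0.279 CPM with chaetocin and 0.0123 CPM with TGF-β alone. Tubule epithelial markers were abundant in both groups, with Cdh1 at 617 CPM with chaetocin and 650 CPM with TGF-β alone, and Krt8 at 3611 CPM with chaetocin and 1582 CPM with TGF-β alone. Over all tested genes 42.0% were called higher and 38.8% lower, and over those of at least 10 CPM 33.1% higher and 50.1% lower. Summed CPM of the fibroblast markers ranged from 2041 to 2372 in the chaetocin libraries, against 2692 to 2795 in the TGF-β libraries. Of 11 fibroblast markers tested 2 were higher (18.2%) and 5 lower (45.5%). Of 13 epithelial markers tested 7 were higher (53.8%) and 5 lower (38.5%), with Aqp2, Slc12a3 and Slc34a1 near 0. Summed CPM of the epithelial markers ranged from 6905 to 7189 with chaetocin, against 3790 to 3965 with TGF-β alone. Krt8 and Krt18 made up 5393 CPM of this sum with chaetocin and 2394 CPM with TGF-β alone. The other 14 markers made up 1634 CPM with chaetocin and 1481 CPM with TGF-β alone. Of these, Epcam, Cdh16, Krt19, Cubn and Slc12a1 were called higher, and Cdh1, Pax8, Pax2, Lrp2 and Aqp1 lower. Their log2 fold changes ran from -0.68 for Lrp2 to 5.18 for Slc12a1. Slc12a1 averaged 0.253 CPM with TGF-β alone, under the 0.486 CPM that the filter on low counts asked for in 4 libraries. Slc12a1, and likewise Dcn among the 2 higher fibroblast markers, was tested only because its chaetocin libraries passed. Endothelial markers summed to 111 to 121 CPM with chaetocin, against 61.2 to 69.5 CPM with TGF-β alone (6 higher, or 60.0%, and 3 lower, or 30.0%, of 10). Macrophage and leukocyte markers summed to 234 to 273 CPM with chaetocin, against 378 to 414 CPM with TGF-β alone (4 higher, or 33.3%, and 7 lower, or 58.3%, of 12). The part of these shifts in the results below was not tested, and in bulk samples fewer cells of a type and less RNA per cell cannot be told apart.

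Of the 54 genes, 38 had enough counts to be tested, which leaves out 16 and so does not describe the whole family. With chaetocin 24 of the 38 were lower and 6 were higher (edgeR quasi-likelihood test, Benjamini-Hochberg adjusted p under 0.05), so 63.2% were lower where 38.8% of all 14608 tested genes were, and 15.8% were higher where 42.0% of all genes were. Calls in either direction made up 78.9% of the 38, near the 80.7% of all genes. A fold of at least 2 down was reached by 11 of the 38, or 28.9%, against 4.88% of all genes, and a fold of at least 2 up by 4, against 19.7% of all genes. The median log2 fold change of the 38 was -0.33, against 0.02 over all tested genes. Notum, Fzd9 and Rspo3 passed the filter on low counts (0.486 CPM in 4 libraries) only through the chaetocin libraries, where they are high, and Rspo1 only through the TGF-β libraries, so these had to differ. They are 3 of the 6 higher genes and 1 of the 24 lower genes, and 3 of the 4 with a fold of at least 2 up. The CPM of the groups did not overlap in 29 of the 38, where 74.7% of all genes did not, and 23 of these were lower (35.8% of all genes) and 6 higher (38.9%). Of the 20 genes with a mean of at least 10 CPM 17 were lower and 0 higher, where 50.1% of all genes of that level were lower and 33.1% higher. Of the 18 genes under 10 CPM, 7 were lower and 6 higher, where 18.1% of all such genes were lower and 58.1% higher.

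**Figure D1:**
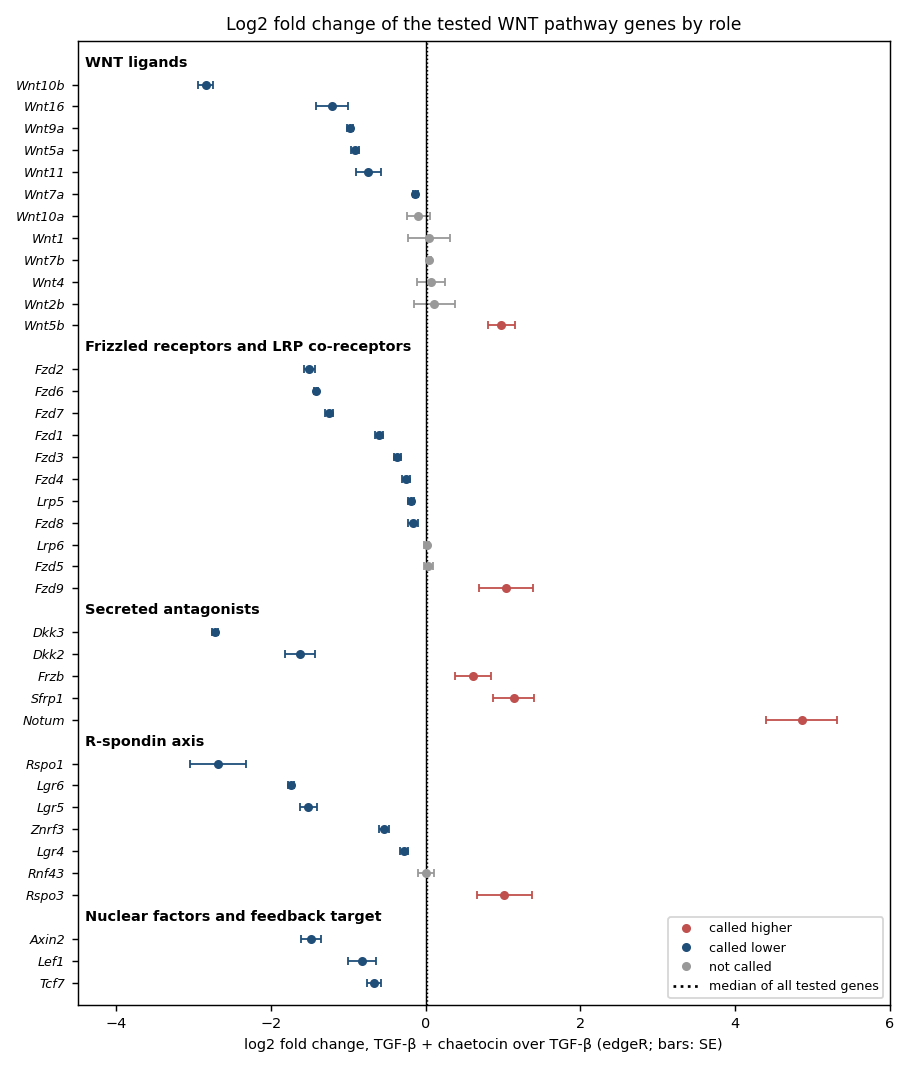
Log2 fold change, TGF-β with chaetocin over TGF-β alone, of the 38 tested WNT pathway genes, grouped by role. Points are edgeR estimates from 4 libraries a group, bars are standard errors, and negative values lie to the left of the zero line. Notum at 4.86, a fitted value that rests on 5 counts with TGF-β alone, stands far to the right, and Wnt10b at -2.84 and Dkk3 at -2.72 are the lowest.

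Among the ligands, Wnt10b, a ligand of the canonical branch, fell most, at -2.84 on the log2 scale, followed by Wnt16 at -1.21. Wnt9a and Wnt5a fell by amounts close to each other, at -0.98 and -0.92. Wnt7b, the most abundant ligand by FPKM (the authors' values per gene length and library depth), was not called. Of 12 tested ligands 6 were lower (50%), 1 was higher (8.33%) and 5 were not called, with a median log2 fold change of -0.11. Over all genes 38.8% were lower and 42.0% higher, and over genes of at least 10 CPM 50.1% were lower and 33.1% higher. Of the tested ligands only Wnt7b, Wnt7a, Wnt9a, Wnt5a and Wnt10b reached that level. Of all genes under 10 CPM 18.1% were lower and 58.1% higher, so no single share fits the ligands.

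Wnt10b (chromosome 15, 98770712 to 98778150, minus strand) had 3.84, 3.89, 3.27 and 2.68 CPM in the chaetocin libraries, against 25.0, 25.2, 22.9 and 26.4 CPM with TGF-β alone, from 42 to 90 counts with chaetocin and 464 to 601 with TGF-β alone. Every chaetocin library lay far below every TGF-β library. The log2 fold change was -2.84 ± 0.09 (SE; adjusted p = 1.53e-20), a 7.18-fold drop. In FPKM it averaged 1.48 ± 0.273 with chaetocin and 9.96 ± 0.688 with TGF-β alone (SD, n = 4 each). Wnt1, the founding member of the family, is its neighbour 11.7 kb away on the opposite strand, at 98789857 to 98793837. Wnt1 had 1.20, 0.894, 1.40 and 1.02 CPM with chaetocin, against 0.781, 1.70, 1.14 and 0.836 CPM with TGF-β alone. These groups overlapped fully, and Wnt1 was not called (log2 fold change 0.04 ± 0.27 SE; adjusted p = 0.895). The 250 bases before each start site (RefSeq annotation of GRCm38.p6) are shown because these neighbours start close together and differ in their calls. They lie at chr15:98778151-98778400, minus strand, for Wnt10b and chr15:98789607-98789856, plus strand, for Wnt1, and capitals mark a GC box, GGGCGG on either strand, which only the Wnt1 window holds.
Wnt10b: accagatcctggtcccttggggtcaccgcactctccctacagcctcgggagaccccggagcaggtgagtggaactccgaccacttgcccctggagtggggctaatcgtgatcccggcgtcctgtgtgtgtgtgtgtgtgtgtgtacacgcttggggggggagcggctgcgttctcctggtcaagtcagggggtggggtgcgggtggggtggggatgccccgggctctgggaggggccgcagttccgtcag
Wnt1: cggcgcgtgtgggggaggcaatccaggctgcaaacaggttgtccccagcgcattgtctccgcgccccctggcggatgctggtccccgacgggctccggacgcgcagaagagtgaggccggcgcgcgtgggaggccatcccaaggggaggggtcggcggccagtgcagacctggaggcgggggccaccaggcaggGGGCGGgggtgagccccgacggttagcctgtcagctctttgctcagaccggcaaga

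Of the 54 genes 35 had a RefSeq window. The GC box stood in 26 of the 35, or 74.3%, and in 32.7% of all 32851 windows of the same length. The core of the TCF and LEF motif, CTTTGA, stood in 4 windows, or 11.4%, against 13.8% of all windows, and the AP-1 motif TGANTCA in 1, or 2.86%, against 6.75%. No match overlapped another motif in the windows printed here. Median GC content was 68.0% in the 35 windows and 52.4% in all windows. By call, the GC box stood in 10 of 15 windows of genes that were lower, 3 of 3 of genes that were higher and 4 of 5 of genes not called. These matches are a description of the letters alone.

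Wnt9a, a ligand of joint and skeletal development in mouse, had 39.5, 41.4, 38.4 and 38.2 CPM with chaetocin, against 74.0, 81.3, 76.8 and 78.8 CPM with TGF-β alone. Wnt5a, the best studied ligand of the branches that do not use β-catenin, had 27.7, 30.2, 23.9 and 26.8 CPM, against 52.8, 49.9, 51.1 and 51.8 CPM with TGF-β alone. Neither gene's groups overlapped, and within each group the libraries lay close together. The log2 fold change was -0.98 ± 0.04 (SE; adjusted p = 3.43e-18) for Wnt9a and -0.92 ± 0.05 (adjusted p = 4.11e-15) for Wnt5a. Its close paralog Wnt5b went the other way at a low level, with 2.99, 3.26, 2.999 and 3.38 CPM, against 1.33, 1.5975, 1.93 and 1.54 CPM with TGF-β alone. All 4 chaetocin libraries were above all TGF-β libraries (log2 fold change 0.98 ± 0.18 SE; adjusted p = 1.68e-05). Wnt5a was the more abundant of the pair, at 6.22 ± 0.700 FPKM with chaetocin and 10.4 ± 0.418 FPKM with TGF-β alone, where Wnt5b averaged 1.46 FPKM with chaetocin and 0.677 FPKM with TGF-β alone.

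Wnt16 had 1.11, 1.40, 0.800 and 1.21 CPM with chaetocin, against 2.48, 2.47, 2.81 and 2.77 CPM with TGF-β alone, again without overlap (log2 fold change -1.21 ± 0.20 SE; adjusted p = 5.06e-06). Wnt11, which guides ureteric branching in mouse, had 3.37, 4.02, 3.20 and 2.93 CPM, against 3.90, 5.57, 5.88 and 7.30 CPM with TGF-β alone. It was called lower (log2 fold change -0.74 ± 0.16 SE; adjusted p = 0.000177), but its lowest TGF-β library lay inside the range of the chaetocin libraries. The TGF-β libraries of Wnt11 were spread widely, with an SD of 1.40 CPM. Wnt10a, Wnt4 and Wnt2b were not called, with means of 3.21, 2.47 and 1.19 CPM with chaetocin and 3.40, 2.35 and 1.13 CPM with TGF-β alone.

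Wnt7b and Wnt7a, close paralogs of which Wnt7b acts in the collecting duct in mouse, carried most ligand transcripts in both groups. Wnt7b had 257, 257, 255 and 246 CPM with chaetocin, against 252, 242, 253 and 237 CPM with TGF-β alone. The groups overlapped, and the log2 fold change of 0.05 ± 0.03 (SE) was not called (adjusted p = 0.109). Wnt7a had 161, 161, 146 and 155 CPM, against 171, 173, 170.1 and 171 CPM with TGF-β alone. All chaetocin libraries of Wnt7a were below the TGF-β libraries by a small margin (log2 fold change -0.13 ± 0.03 SE; adjusted p = 0.000185). Both calls depend on scaling: under total-count scaling, which moves the median of all genes to 0.14, Wnt7a was -0.02 and not called (adjusted p = 0.559) and Wnt7b was called higher at 0.16 (adjusted p = 3.92e-06). By FPKM the order of the 4 leading ligands was the same in both groups. With chaetocin Wnt7b stood at 83.3 FPKM, Wnt7a at 51.1, Wnt9a at 12.3 and Wnt5a at 6.22, and with TGF-β alone Wnt7b stood at 75.2 FPKM, Wnt7a at 51.9, Wnt9a at 22.5 and Wnt5a at 10.4. In FPKM, unlike CPM, the groups of Wnt7b did not overlap, with 80.87 to 84.66 with chaetocin and 72.43 to 77.56 with TGF-β alone, and limma on log2(FPKM + 1) called it higher (0.15; adjusted p = 0.000616). Wnt7b made up 51.2 ± 1.08% of summed ligand FPKM with chaetocin and 42.0 ± 1.25% with TGF-β alone (SD, n = 4 each), and Wnt10b made up 0.903% with chaetocin and 5.55% with TGF-β alone. Summed ligand FPKM was 158.69 to 168.56 with chaetocin and 177.47 to 181.26 with TGF-β alone. These sums and shares were not tested.

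The other 7 ligands were too low to test. Wnt8a had 12, 8, 6 and 16 counts with chaetocin and 0 in all 4 TGF-β libraries. Set against a floor of 3 counts over the TGF-β group, the ratio of Wnt8a after depth was 16.9, a value without the counting error of the chaetocin libraries. Wnt6 had 20 counts in all with chaetocin and 5 with TGF-β alone, a ratio of 4.82 after depth (95% interval 1.76 to 16.4, counting error only). With chaetocin Wnt8b had 6 counts in all, Wnt3a 5, Wnt3 24, Wnt2 29 and Wnt9b 1, and with TGF-β alone Wnt8b had 0, Wnt3a 1, Wnt3 13, Wnt2 28 and Wnt9b 4. None of these was tested over replicates.

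**Figure D2:**
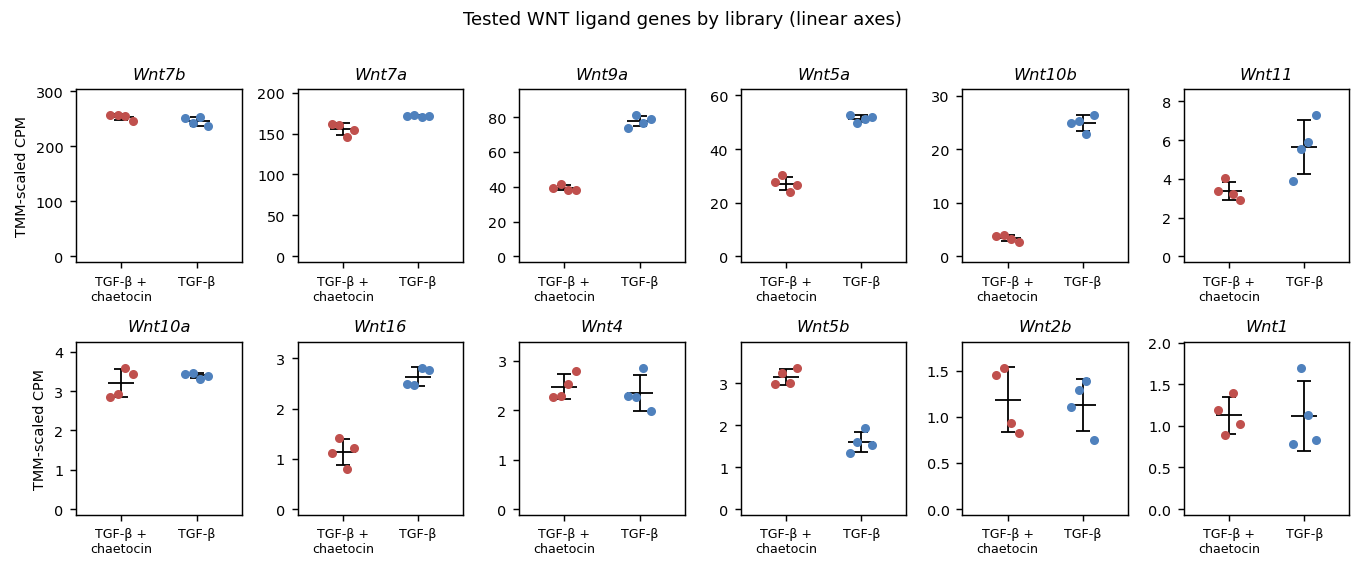
TMM-scaled CPM of WNT ligand genes in each library, on linear axes that differ between panels. Points are the 4 libraries of each group, TGF-β with chaetocin on the left and TGF-β alone on the right, and bars show the mean and SD. Wnt10b averages 3.42 CPM with chaetocin and 24.9 CPM with TGF-β alone, while the groups of Wnt7b and Wnt1 overlap.

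Most Frizzled receptors were lower with chaetocin, Fzd6 being the most abundant and Fzd2 having the largest fold change, while the co-receptor Lrp6 and the receptor Fzd5 were not called. Of 11 tested receptors and co-receptors 8 were lower (72.7%), 1 was higher (9.09%) and 2 were not called (edgeR), against 38.8% lower and 42.0% higher of all genes, with a median log2 fold change of -0.26. All but Fzd9 averaged at least 10 CPM, a level at which 50.1% of all genes were lower and 33.1% higher.

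Fzd6 (chromosome 15, 39006034 to 39038188, plus strand), a receptor known for hair and tissue polarity in mouse, had 69.6, 72.6, 68.0 and 67.0 CPM with chaetocin, against 189, 181, 182 and 189 CPM with TGF-β alone. The groups were far apart, and the spread within each was small. The log2 fold change was -1.42 ± 0.03 (SE; adjusted p = 1.41e-24). Fzd7 had 18.1, 16.5, 18.7 and 17.7 CPM, against 41.1, 41.7, 44.3 and 41.6 CPM with TGF-β alone (log2 fold change -1.25 ± 0.05 SE; adjusted p = 5.4e-18). Its close relative Fzd2 had 10.1, 9.13, 9.20 and 7.90 CPM, against 27.0, 24.3, 27.6 and 25.3 CPM with TGF-β alone (-1.50 ± 0.07 SE; adjusted p = 1.36e-16). Fzd1, the third of this closely related trio, had 19.97, 21.8, 21.5 and 19.8 CPM, against 32.5, 31.6, 32.6 and 29.5 CPM with TGF-β alone (-0.61 ± 0.06 SE; adjusted p = 1.17e-10). In all of Fzd1, Fzd2 and Fzd7 no chaetocin library reached the lowest TGF-β library.

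The other receptors moved less. Fzd3, a polarity receptor of axon tracts, had 29.6, 28.2, 27.7 and 26.9 CPM with chaetocin, against 36.8, 36.8, 34.5 and 37.3 CPM with TGF-β alone (log2 fold change -0.37 ± 0.05 SE; adjusted p = 1.79e-07). Fzd4, the receptor of retinal vessels, had 38.7, 38.7, 40.8 and 34.0 CPM, against 45.2, 44.6, 45.6 and 46.8 CPM with TGF-β alone (-0.26 ± 0.05 SE; adjusted p = 2.42e-05), a call that limma on log2(FPKM + 1) did not make (adjusted p = 0.0667). Every chaetocin library of these receptors lay below every TGF-β library. Fzd8 had 14.98, 14.9, 14.7 and 14.7 CPM, against 17.4, 15.05, 17.7 and 16.3 CPM with TGF-β alone, so the groups nearly touched. Its log2 fold change was -0.16 ± 0.07 (adjusted p = 0.031), a call that was lost under total-count scaling (-0.05; adjusted p = 0.506). Fzd5 had 33.3, 35.2, 31.1 and 36.4 CPM with chaetocin, against 34.2, 35.2, 32.1 and 31.5 CPM with TGF-β alone. Its groups overlapped (log2 fold change 0.03 ± 0.05 SE; adjusted p = 0.561), although total-count scaling gave a call at 0.15 (adjusted p = 0.0144). Fzd9, at the edge of detection, had 0.768, 0.638, 0.866 and 0.573 CPM with chaetocin, against 0.367, 0.258, 0.494 and 0.264 CPM with TGF-β alone. The groups did not overlap (1.04 ± 0.35 SE; adjusted p = 0.0077), but the gene was tested only because its chaetocin libraries passed the filter. Fzd10 was not tested, with 45 counts with chaetocin and 17 with TGF-β alone.

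Summed Frizzled FPKM was 43.86 to 46.67 with chaetocin and 81.22 to 85.03 with TGF-β alone. Fzd6 supplied 37.7 ± 0.548% of it with chaetocin and 51.7 ± 1.35% with TGF-β alone (SD, n = 4 each). Fzd6 stood first by FPKM in both groups, at 17.3 with chaetocin and 43.0 with TGF-β alone. Below it the order differed: with chaetocin Fzd4, Fzd5 and Fzd1 came next, at 5.89, 5.43 and 5.15 FPKM, and with TGF-β alone Fzd7, Fzd1 and Fzd2, at 8.96, 7.23 and 6.83 FPKM. With chaetocin the ranges of Fzd4 (5.27 to 6.33 FPKM), Fzd5 (5.01 to 5.76) and Fzd1 (4.91 to 5.41) overlapped, so neighbours in this order did not differ beyond their spread. With TGF-β alone Fzd7 (8.69 to 9.43 FPKM) stood clear of Fzd1 (6.76 to 7.48), which overlapped Fzd2 (6.39 to 7.25). These orders were not tested.

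**Figure D3:**
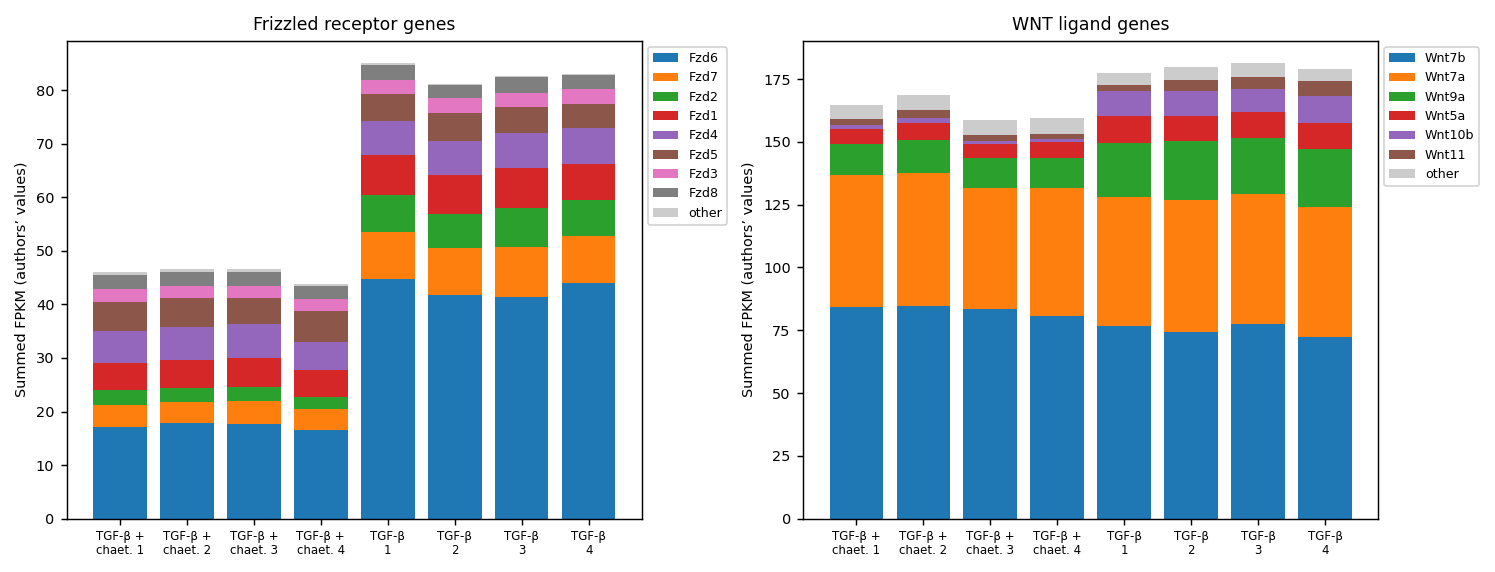
Summed FPKM of Frizzled genes (left) and WNT ligand genes (right) in each of the 8 libraries, stacked by gene, with the 4 libraries of TGF-β and chaetocin (chaet.) first. Frizzled totals are 43.86 to 46.67 FPKM with chaetocin and 81.22 to 85.03 FPKM with TGF-β alone, and Fzd6 is the bottom block.

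The co-receptors LRP5 and LRP6 pair with Frizzled in the canonical branch. Lrp6 had 148, 152, 145 and 146 CPM with chaetocin, against 147, 142, 146 and 151 CPM with TGF-β alone. The groups overlapped and Lrp6 was not called (log2 fold change 0.01 ± 0.03 SE; adjusted p = 0.717), but total-count scaling called it higher at 0.13 (adjusted p = 0.00019), as did limma on log2(FPKM + 1) at 0.11 (adjusted p = 0.0248). Lrp5 had 53.5, 53.2, 53.2 and 52.8 CPM, against 60.5, 61.9, 60.4 and 60.7 CPM with TGF-β alone. Its groups did not overlap, and the log2 fold change was -0.19 ± 0.04 (SE; adjusted p = 2.29e-05), again not called by limma on log2(FPKM + 1) (adjusted p = 0.108).

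**Figure D4:**
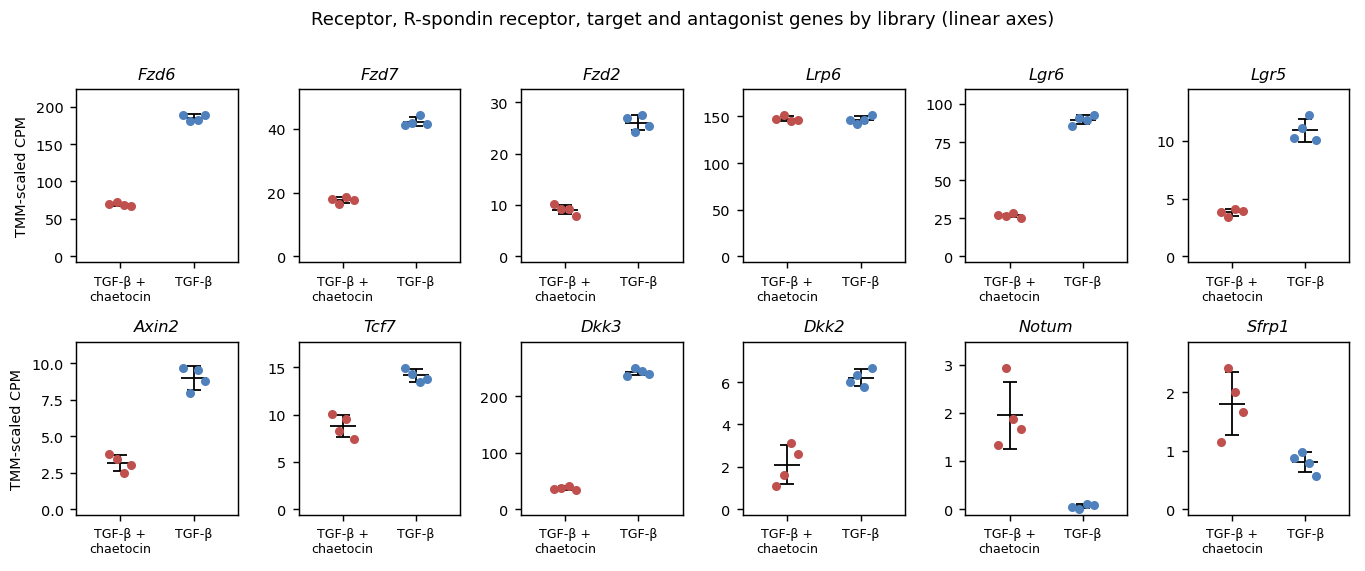
TMM-scaled CPM of receptor, R-spondin receptor, target and antagonist genes in each library, on linear axes that differ between panels. Points are libraries, TGF-β with chaetocin on the left of each panel and TGF-β alone on the right, with the mean and SD as bars. Fzd6, Lgr6 and Dkk3 are lower in every chaetocin library, Notum is higher in every one, and the groups of Lrp6 overlap.

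The R-spondin receptors changed rank with chaetocin. Lgr6 and Lgr5, which mark stem cells of skin and gut in mouse, had larger fold changes than Lgr4, the broadly expressed member, a difference between genes that was not tested. Lgr6 (chromosome 1, 134983301 to 135105276, minus strand) had 27.2, 26.4, 28.3 and 25.4 CPM with chaetocin, against 85.6, 90.8, 89.7 and 92.8 CPM with TGF-β alone. Lgr5 had 3.80, 3.38, 4.13 and 3.89 CPM, against 10.2, 11.1, 12.2 and 10.1 CPM with TGF-β alone. In both genes every chaetocin library was below every TGF-β library, with log2 fold changes of -1.74 ± 0.04 (SE; adjusted p = 1.66e-23) for Lgr6 and -1.52 ± 0.11 (adjusted p = 1.05e-12) for Lgr5. Lgr4 had 29.5, 31.8, 31.5 and 27.6 CPM, against 38.1, 36.4, 37.3 and 34.7 CPM with TGF-β alone (-0.28 ± 0.05 SE; adjusted p = 1.79e-05). By FPKM, Lgr4 stood first with chaetocin, at 6.19 against 5.15 for Lgr6, and Lgr6 stood first with TGF-β alone, at 13.2 against 6.96 for Lgr4. Lgr6 supplied 42.3 ± 1.34% of summed Lgr4, Lgr5 and Lgr6 FPKM with chaetocin and 58.8 ± 1.98% with TGF-β alone (SD, n = 4 each).

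The R-spondin genes themselves were scarce. Rspo1 had 7, 3, 1 and 2 counts with chaetocin, against 26, 24, 27 and 26 counts with TGF-β alone. That is a mean of 0.171 CPM with chaetocin and 1.23 CPM with TGF-β alone, the chaetocin values lying near the 3-count floor (log2 fold change -2.68 ± 0.36 SE; adjusted p = 1.51e-07). Rspo1 was tested only because its TGF-β libraries passed the filter. Rspo3 moved the other way, at 0.811, 0.638, 0.533 and 0.573 CPM, against 0.459, 0.309, 0.247 and 0.264 CPM with TGF-β alone (1.02 ± 0.36 SE; adjusted p = 0.011). Rspo3 was tested only through its chaetocin libraries, and the call was lost without chaetocin replicate 1 (adjusted p = 0.0629). Rspo2 and Rspo4 were not tested, with 22 and 4 counts with chaetocin and 4 and 0 with TGF-β alone. Of the ligases that clear Frizzled, Znrf3 had 15.7, 16.7, 15.2 and 18.0 CPM, against 25.5, 23.6, 22.9 and 23.4 CPM with TGF-β alone (-0.54 ± 0.06 SE; adjusted p = 1.32e-08). Znrf3 was lower in each chaetocin library. Rnf43 averaged 7.70 ± 1.23 CPM with chaetocin and 7.66 ± 0.281 CPM with TGF-β alone and was not called (0.00 ± 0.11 SE; adjusted p = 0.973). Of the 7 tested genes of the axis 5 were lower (71.4%; 38.8% of all genes), 1 was higher and 1 was not called, with a median log2 fold change of -0.54. Rspo1 is 1 of the 5 lower, and Rspo3 is the 1 higher (42.0% of all genes were higher).

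The nuclear factors and the feedback target were all lower, 3 of 3 tested where 38.8% of all genes were lower, with a median log2 fold change of -0.82. Axin2 (chromosome 11, 108920349 to 108950783, plus strand), a scaffold of the β-catenin destruction complex and a widely used target gene of the pathway, had 3.76, 3.45, 2.47 and 2.99 CPM with chaetocin, against 9.69, 7.94, 9.53 and 8.80 CPM with TGF-β alone. No chaetocin library came near the lowest TGF-β library (log2 fold change -1.48 ± 0.13 SE; adjusted p = 3.95e-11). Tcf7, which encodes a DNA-binding partner of β-catenin, had 10.03, 8.24, 9.53 and 7.39 CPM, against 14.97, 14.3, 13.4 and 13.8 CPM with TGF-β alone (-0.67 ± 0.09 SE; adjusted p = 1.38e-07). Lef1, of the same family, averaged 1.70 ± 0.221 CPM with chaetocin and 2.98 ± 0.349 CPM with TGF-β alone (-0.82 ± 0.18 SE; adjusted p = 0.000191). The windows before the start sites of Lgr6 (chr1:135105277-135105526, minus strand) and Axin2 (chr11:108920099-108920348, plus strand) are shown as those of the R-spondin receptor and the target gene with the larger drops. Capitals again mark the GC box, which stood once before Lgr6 and at 2 places before Axin2, and neither window held the letters CTTTGA or TGANTCA.
Lgr6: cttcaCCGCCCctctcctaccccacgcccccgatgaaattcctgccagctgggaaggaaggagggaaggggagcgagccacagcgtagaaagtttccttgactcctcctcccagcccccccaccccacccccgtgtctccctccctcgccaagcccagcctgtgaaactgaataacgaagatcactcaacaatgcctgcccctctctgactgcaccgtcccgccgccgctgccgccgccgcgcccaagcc
Axin2: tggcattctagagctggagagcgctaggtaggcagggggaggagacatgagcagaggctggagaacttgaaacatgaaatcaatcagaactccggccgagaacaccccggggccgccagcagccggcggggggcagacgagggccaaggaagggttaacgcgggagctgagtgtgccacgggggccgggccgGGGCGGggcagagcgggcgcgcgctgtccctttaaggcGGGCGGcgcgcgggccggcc

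The secreted antagonists split, with Dkk3 and Dkk2 lower and Notum, Sfrp1 and Frzb higher. Of 5 tested genes 2 were lower (40.0%) and 3 higher (60.0%), where 38.8% and 42.0% of all genes were, with a median log2 fold change of 0.61. Notum, counted among the 3 higher, was tested only because its chaetocin libraries passed the filter. Dkk3 (chromosome 7, 112116017 to 112159057, minus strand), a divergent member of the Dickkopf family, had 35.2, 37.6, 40.98 and 34.3 CPM with chaetocin, against 237, 251, 244 and 240.1 CPM with TGF-β alone. Every chaetocin library lay far below every TGF-β library, with a log2 fold change of -2.72 ± 0.04 (SE; adjusted p = 1.05e-28), a 6.58-fold drop. Dkk2, which binds the LRP co-receptors, had 1.07, 1.596, 3.13 and 2.61 CPM, against 6.02, 6.34, 5.78 and 6.69 CPM with TGF-β alone. Its groups did not overlap, although the chaetocin libraries were spread by an SD of 0.939 CPM (-1.62 ± 0.19 SE; adjusted p = 1.94e-08).

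Notum (chromosome 11, 120653788 to 120661175, minus strand), which encodes an extracellular enzyme that removes the lipid of WNT proteins, had 31, 46, 28 and 26 counts with chaetocin, against 1, 0, 2 and 2 counts with TGF-β alone. The TGF-β libraries were all under the 3-count floor and the chaetocin libraries all well above it. The depth-corrected ratio of summed counts was 31.6 (95% interval 13.2 to 98.9, counting error only). The edgeR log2 fold change was 4.86 ± 0.46 (SE; adjusted p = 1.86e-10), but Notum was tested only because its chaetocin libraries passed the filter. Sfrp1, a soluble decoy that resembles the ligand-binding part of Frizzled, had 1.15, 2.43, 1.999 and 1.66 CPM, against 0.873, 0.979, 0.790 and 0.572 CPM with TGF-β alone (log2 fold change 1.14 ± 0.27 SE; adjusted p = 0.000358). Frzb, another such decoy, averaged 1.56 ± 0.196 CPM with chaetocin and 1.03 ± 0.208 CPM with TGF-β alone (0.61 ± 0.23 SE; adjusted p = 0.0191). Both were higher in every chaetocin library, and the Frzb call was lost without chaetocin replicate 1 or without TGF-β replicate 3 (adjusted p = 0.0777 and 0.0756).

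Summed FPKM of the 11 antagonists averaged 14.3 ± 1.36 with chaetocin and 72.1 ± 2.08 with TGF-β alone (SD, n = 4 each), and Dkk3 made up 80.5% of it with chaetocin and 96.4% with TGF-β alone. The 6 antagonists not tested had few counts: with chaetocin Sfrp2 had 8 in all, Sfrp4 35, Wif1 6, Dkk1 1, Sfrp5 2 and Dkk4 1, and with TGF-β alone Sfrp2 had 46, Sfrp4 30, Wif1 0, Dkk1 4, Sfrp5 1 and Dkk4 1.

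Exons of 10 of the 54 genes overlap a gene on the opposite strand in GENCODE M21. The strand setting of the counting is unknown here, so reads of such partners cannot be told apart. The overlap is 152 bases with Gm26704 for Fzd6, 708 with Notumos and 210 with Myadml2os for Notum, 209 with Gm11670 for Axin2 and 1208 with Gm43352 for Lef1. It is 358 bases with Gm2670 for Wnt5a, 324 with AU022754 for Wnt7b, 364 with Gm8398 for Wnt11 and 1233 with Gm38058 for Fzd5. Rspo3 and Sfrp2 share 404 and 347 bases in the same way.

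The rest of the pathway was read from gene lists of textbook members. Of 19 tested genes for WNT secretion and membrane partners 9 were lower (47.4%) and 7 higher (36.8%), with a median log2 fold change of -0.22. Over all tested genes 38.8% were lower and 42.0% higher. Over genes of at least 10 CPM, a level reached by 8 of the 19, 50.1% were lower and 33.1% higher. Over genes under 10 CPM 18.1% were lower and 58.1% higher, so no single share fits this list. Wls, which carries WNT proteins to the cell surface, averaged 298 ± 7.71 CPM with chaetocin and 483 ± 8.85 CPM with TGF-β alone (-0.70 ± 0.02 SE; adjusted p = 5.07e-20). The co-receptor Ptk7 was also lower (-0.84; adjusted p = 7.71e-20), while the receptor kinases Ror1 (1.49; adjusted p = 2.35e-12) and Musk (2.95; adjusted p = 3.63e-12) were higher. Ror1 averaged 11.1 CPM with chaetocin and 3.94 CPM with TGF-β alone, and Musk averaged 3.35 CPM with chaetocin and 0.428 CPM with TGF-β alone. The TGF-β mean of Musk is under the filter's 0.486 CPM, as are those of Kremen2 (0.0467) and Lypd6 (0.480), which were also higher. All of these were tested only because their chaetocin libraries passed the filter.

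Among 25 tested genes of the destruction complex and cytoplasmic signalling 15 were lower (60.0%) and 7 higher (28.0%; median -0.28). Of the 25, 22 reached 10 CPM, a level at which 50.1% of all genes were lower and 33.1% higher. Ctnnb1, which encodes β-catenin, averaged 732 ± 5.24 CPM with chaetocin and 1115 ± 19.4 CPM with TGF-β alone (-0.61 ± 0.02 SE; adjusted p = 3.21e-20). The kinase gene Csnk1a1 fell by 0.46 on the log2 scale, and Gsk3b and the scaffold gene Dvl2 were higher, at 0.39 and 0.78. Of 21 nuclear effectors, 18 of which reached 10 CPM, 18 were lower (85.7%) and 1, the corepressor gene Tle4 at 0.86, was higher (4.76%; median -0.50). The shares to set beside this list are again 50.1% lower and 33.1% higher, those of all genes of at least 10 CPM. Tbl1xr1, for a corepressor subunit, was lower at -0.95, and the β-catenin cofactor gene Bcl9l at -0.75. Pygo1, also lower, averaged 0.431 CPM with chaetocin and was tested only because its TGF-β libraries passed the filter.

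Genes reported elsewhere as β-catenin targets did not share a direction: of 22 tested 11 were lower (50%) and 8 higher (36.4%; median -0.30). Of the 22, 13 reached 10 CPM, a level at which 50.1% of all genes were lower and 33.1% higher. Under 10 CPM 18.1% of all genes were lower and 58.1% higher. Tnfrsf19, 1 of the 8 higher, averaged 0.0834 CPM with TGF-β alone and was tested only because its chaetocin libraries passed the filter. Ccn4, a matricellular protein gene, averaged 158 ± 10.2 CPM with chaetocin and 649 ± 5.77 CPM with TGF-β alone (-2.03 ± 0.03 SE; adjusted p = 3.98e-28), and Fn1, for fibronectin, was at -1.14. Ccnd1, for cyclin D1, averaged 749 ± 13.0 CPM with chaetocin and 304 ± 4.64 CPM with TGF-β alone (1.30 ± 0.02 SE; adjusted p = 7.16e-27), and Plaur, for the urokinase receptor, was at 1.66. Of 19 planar cell polarity genes 12 were lower (63.2%) and 3 higher (15.8%; median -0.47), where 38.8% of all tested genes were lower and 42.0% higher. Of the 19, 11 reached 10 CPM, so the shares of both levels apply here too. Prickle1 and Celsr1 were lower, at -1.84 and -1.73, and Prickle2 and Scrib higher, at 1.30 and 0.54. Some genes stand in more than 1 list.

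**Figure D5:**
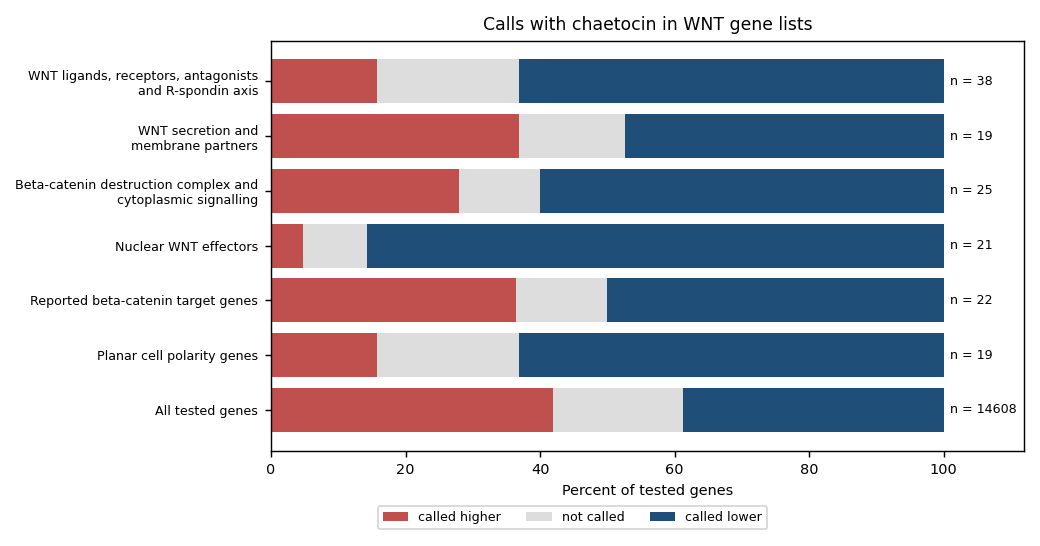
Percent of tested genes called higher (left), not called (grey) and called lower (right) with chaetocin, relative to TGF-β alone, by edgeR in the 54-gene family (38 tested), in 5 pathway lists and in all 14608 tested genes. Lower calls outnumber higher calls in the family and in each list, while 42.0% of all genes are higher and 38.8% lower. Among genes of at least 10 CPM, not drawn, 33.1% are higher and 50.1% lower.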

How the data were processed

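RNA was sequenced from 8 samples grouped by the treatment label. Column-purified RNA went into SMARTER libraries, per the labels' protocols. Per the submitters' processing notes, the genome build was GRCm38 (mm10). For aligner, counting program, annotation and strand setting: not given in the sources used here. The authors deposited 1 table with whole-number read counts, not normalized, and FPKM, by definition divided by gene length and depth. It also holds the authors' log2 ratio and p-value columns, which were not used for any result; 0 columns of other samples were present.

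Counts were tested with edgeR 4.0.16 in R 4.3.3 (filterByExpr, TMM, quasi-likelihood F test), with Benjamini-Hochberg adjustment over all 14608 tested genes and a threshold of 0.05. All adjusted p-values in the report are from this test unless another scaling is named. The SE is the log2 fold change divided by the square root of F. The common biological coefficient of variation was 2.94%, so small differences could be called. FPKM served for levels between genes, and was tested with limma as an alternative only. Alternatives were DESeq2 1.42.0, its size factors, total-count scaling, other filters, limma 3.58.1 (voom, and log2 of FPKM with pseudocounts of 1 and 0.1), a replicate block, each library left out and a fold of at least 2. The script was tested on simulated data. Same-numbered libraries did not deviate together (correlations -0.0166 to 0.0356), so numbers only name libraries. Replicates differed by more than sampling noise, with a chi-square per gene of 2.02 to 2.56.

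The genes and lists were chosen with earlier results of these data known. Values per library are given for called genes with a log2 fold change of at least 1 in size, the most abundant tested gene of each role, and tested genes with a mean of at least 10 CPM, 29 genes in all, and for others where a comparison needs them. From each pathway list the 2 called genes with the smallest p in each direction were named. Positions are from GENCODE M21, to which all 54 genes matched.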

Additional observations from a re-analysis of the deposited data

Results flagged for a closer look

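Lrp5, the LRP co-receptor gene, had 53.2 ± 0.319 TMM-scaled CPM with chaetocin (SD, n = 4), against 61.94 CPM in TGF-β replicate 2, where the other TGF-β libraries lay between 60.44 and 60.66 CPM. The gap to its nearest neighbour was 0.853 of the group's range, above Dixon's critical value for 4 samples. Chance flags about 1 in 20 groups, and this was the only one among the groups of all tested genes of the family. All chaetocin libraries lay below all TGF-β libraries.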

How the results depend on the processing

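All 30 calls among the WNT genes kept their sign and call under DESeq2 size factors, voom, no filter and the replicate block, 29 under DESeq2, 28 under total-count scaling and 27 with a filter of 1 CPM in 4 libraries. With the replicate block 6 genes were higher and 24 lower, and over all genes 6105 and 5643. Total-count scaling gave 9 higher and 22 lower, and over all genes 7180 and 4514, against 6129 and 5662. With no filter, where all 54 were tested, 12 were higher. The FPKM fits called 3 higher with a pseudocount of 1 or 0.1, where 28 were tested, and 11 with no filter. They kept 19, 19 and 25 of the 30 calls and called 18, 18 and 21 genes lower, against 24. Each lost Wnt7a, Fzd4, Fzd8 and Lrp5, the one with no filter also lost Rspo3 (0.12; adjusted p = 0.156), and each called Wnt7b (0.15) and Lrp6 (0.11) higher. The cause was not tested. With a fold of at least 2, 11 WNT genes were lower, 11 and 16 genes of the pathway lists were higher and lower (26 and 61 without it), and over all genes 2884 and 713.

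Without 1 library at a time, 4 to 8 WNT genes were higher and 23 to 24 lower, and pathway lists gave 22 to 26 and 59 to 62. All genes gave 6030 to 6276 and 5538 to 5677. Fzd8 was lost without chaetocin replicate 4 (adjusted p = 0.0502), TGF-β replicate 1 (0.0719) or TGF-β replicate 3 (0.0844). Wnt7b was called with DESeq2 size factors (0.06; adjusted p = 0.0362), DESeq2, the 1 CPM filter and the FPKM fits. The uncalled Fzd5 and Lrp6 changed sign: Fzd5 was -0.0023 with no filter, and -0.00089 to 0.0684 with 1 library left out, lowest without chaetocin replicate 4, and Lrp6 was -0.0254 with no filter, -0.00449 without chaetocin replicate 2, and -0.0115 (without TGF-β replicate 2) to 0.0197 with 1 library left out. Depth limits the genes under 1 CPM, and the 16 untested genes rest on few counts.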

Other observations

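Besides Wnt10b and Wnt1, 3 pairs of these ligand genes lie within 100 kb of each other. Wnt3a and Wnt9a start in opposite directions on chromosome 11 with 16.2 kb between them. Wnt9a was lower with chaetocin, at 39.4 ± 1.45 CPM, against 77.7 ± 3.10 CPM with TGF-β alone (SD, n = 4 each), while Wnt3a had 5 counts in all with chaetocin and 1 with TGF-β alone. Wnt6 and Wnt10a lie 6.2 kb apart on the plus strand of chromosome 1. Wnt10a was not called, at 3.21 ± 0.366 CPM with chaetocin and 3.40 ± 0.0664 CPM with TGF-β alone (log2 fold change -0.09 ± 0.15 SE; edgeR, Benjamini-Hochberg adjusted p = 0.57), and Wnt6 had 20 counts with chaetocin and 5 with TGF-β alone. Wnt9b and Wnt3, 24.3 kb apart on chromosome 11, were both too low to test. Whether linked ligands differ in response was not tested.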
